A study of Mus musculus with 6 samples.

Results

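The wild-type soleus of male mice was described as a hierarchy of transcript signals, from the 3 arrays of the series whose labels name wild-type C57BL/6 animals. These are 3 of the 6 samples. The other 3 come from male mice without estrogen receptor beta and were not used, so no contrast of genotype is made. The labels give no age, no treatment and no further allele for the wild type, and they do not say whether each sample came from a single animal or from pooled muscles, so the spread given below may be partly technical. Each array carries 12488 probe sets, groups of short oligonucleotides designed to read a transcript or a family of similar ones. After 66 control probe sets were set aside, 12422 were ranked by their mean signal over the 3 arrays, on a linear scale in array units. Of these, 10833 carry exactly 1 gene symbol in the annotation of the array design, and they stand for 8251 genes. A gene is given below by its brightest probe set. Values are means ± SD with n = 3 unless the 3 arrays are given singly, always in the order of replicates 1, 2 and 3.

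Soleus is a postural calf muscle. In the mouse it mixes slow type I fibres with fast oxidative type IIa fibres, and it holds few of the fast glycolytic type IIb fibres that fill most other limb muscles. A fibre type is set by which isoforms of myosin, troponin, tropomyosin and the calcium pump it makes, since each of these proteins has a slow and a fast gene. Slow fibres contract for long periods and draw their ATP from mitochondria, so they are rich in myoglobin, fatty acid oxidation enzymes and respiratory chain proteins.

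The 3 subunits of slow troponin, the calcium switch of the thin filament, are shown with the DNA before their starts because all 3 genes stood among the 13 brightest. Sequences are the 250 bases before the first start that RefSeq lists for each gene in build GRCm38.p6, 5′ to 3′ on the strand of the gene. Capitals mark either of the motifs searched on both strands. One is the TATA box, spelled TATAAA here. The other is an E-box of the kind that myogenic factors bind, spelled CAGCTG here. No match of one overlaps a match of the other in these windows.

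Tnnt1 (chr7:4515976-4516225, minus strand): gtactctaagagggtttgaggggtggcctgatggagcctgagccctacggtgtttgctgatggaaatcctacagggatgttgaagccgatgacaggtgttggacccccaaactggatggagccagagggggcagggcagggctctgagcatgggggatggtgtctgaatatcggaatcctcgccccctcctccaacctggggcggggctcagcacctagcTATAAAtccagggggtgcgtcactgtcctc

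Tnni1 (chr1:135799171-135799420, plus strand): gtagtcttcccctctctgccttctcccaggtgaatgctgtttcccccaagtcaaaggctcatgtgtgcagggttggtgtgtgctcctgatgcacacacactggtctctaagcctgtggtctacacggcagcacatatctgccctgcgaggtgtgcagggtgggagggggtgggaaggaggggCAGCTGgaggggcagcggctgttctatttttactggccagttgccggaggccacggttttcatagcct

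Tnnc1 (chr14:31208062-31208311, plus strand): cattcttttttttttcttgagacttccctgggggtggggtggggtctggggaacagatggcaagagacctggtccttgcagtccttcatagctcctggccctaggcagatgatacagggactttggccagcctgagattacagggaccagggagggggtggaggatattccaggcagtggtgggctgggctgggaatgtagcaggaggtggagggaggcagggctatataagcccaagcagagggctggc

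The TATA box of Tnnt1 began 30 bases before the start, and the E-box of Tnni1 began 68 bases before it. Tnnc1 held neither run of letters in this window. Of the 40 brightest genes 32 had a sequence in the table, and 7 of these (21.9%) held TATAAA and 8 (25%) held CAGCTG. Among the 100 brightest, 12 of 83 (14.5%) and 17 of 83 (20.5%) held them. Among the 2000 dimmest genes, 12.8% and 11.9% of the 1572 with a sequence held them. The shares were 9.34% and 11.2% over 6576 genes of the array with a sequence, and 13.0% and 12.8% over all 27025 promoters of the table. A match is a run of letters and no evidence of binding.

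The 3 arrays were close to each other. Their medians were 40.4, 40.6 and 39.8, and their 2% trimmed means lay at 100.07 on each. Pairs of arrays correlated at r = 0.963 (replicates 1 and 2), 0.971 (1 and 3) and 0.960 (2 and 3) on the log2 scale, over probe sets that are no independent replicates of each other. Replicate 2, the one whose title carries a different prefix, was thus the farthest from the others. Control signal from the 3′ end of Gapdh over that from its 5′ end, a sign of RNA integrity, was 1.12, 1.07 and 0.979. Of probe sets brighter than the median, between 1.96% (replicates 1 and 3) and 3.59% (replicates 2 and 3) differed by more than 2-fold between a pair of arrays.

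A small number of transcripts held much of the signal. The 558 brightest probe sets, 4.49% of those ranked, summed to 50% of the total, and on single arrays this took 579, 540 and 541 probe sets. The 10 brightest held 4.40%, the 100 brightest 22.9% (22.1%, 23.6% and 23.3% on the 3 arrays) and the 1000 brightest 60.9%. The highest mean was 258.2 times the median of 40.7. A mean of 1000 or more was reached by 310 probe sets and one of 5000 or more by 27. Among the 100 brightest probe sets 80 had 1 symbol, for 76 genes, while 14 had several symbols and 6 had none and are therefore unnamed here. Of these 100 probe sets 19 carry the suffix that marks a family of similar sequences, against 8.65% of all probe sets, so some of the brightest readings can sum related transcripts.

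**Figure D1:**
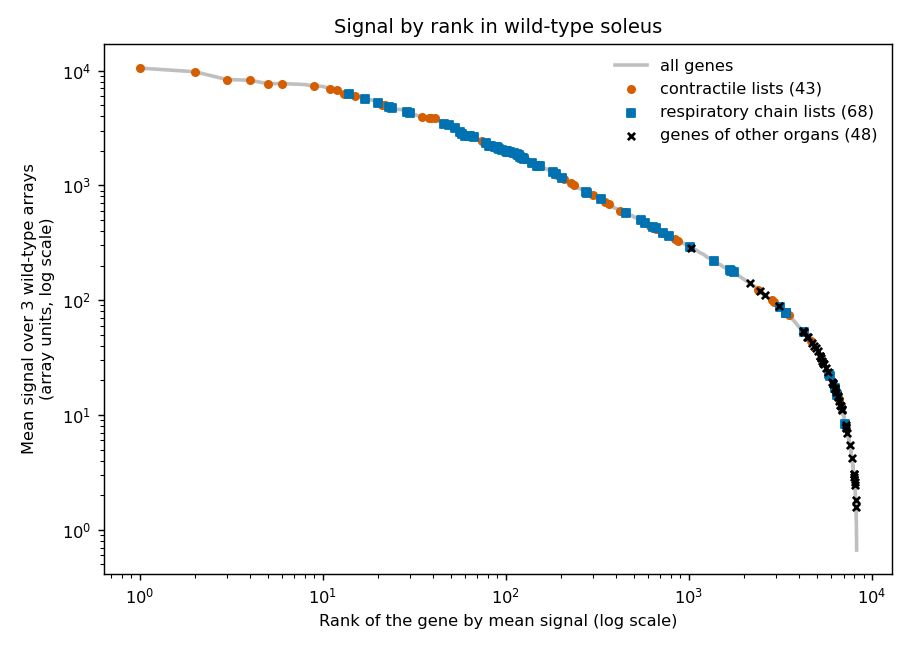
Mean signal over the 3 wild-type arrays (array units, log scale) against the rank of each of 8251 genes (log scale). Orange circles are the 43 measured genes of the contractile lists, blue squares the 68 of the respiratory chain lists and black crosses the 48 genes restricted to other organs. Contractile genes fill the left end from 10509.8 downwards, while the crosses begin at 287.2 and crowd the right end.

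All 5 markers of slow fibres were among the 13 brightest genes, as the label of soleus implies. Tnnt1, slow troponin T, read 8779, 11894 and 10856 and ranked first. It was lowest on replicate 1, as were the other 4 markers. Myh7, the heavy chain of slow myosin, read 7235, 8936 and 8544 and ranked 4th. Its probe set is of the family kind, and heavy chain genes are similar in sequence. The slow light chains Myl2, the regulatory chain, and Myl3, the essential chain, stood at 7697 ± 1312 and 7688 ± 503. Tnnc1, slow troponin C, stood at 6291 ± 982. The arrays of each marker overlapped with those of its neighbours in the order.

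The slow contractile list was the brightest of the 34 lists described. Its 11 measured genes of 14 listed had a median of 6768, against 55.6 over all genes, and 10 of the 11 lay above the 90th percentile of probe sets (294.9). Its median was the highest of all lists with any 1 array left out, from 6255 without replicate 2 to 7257 without replicate 1. Tpm3, slow tropomyosin, read 6973 ± 849 and Tnni1, slow troponin I, 6768 ± 1003. The calcium pump of slow fibres, Atp2a2, stood at 3936 ± 352. Ankrd2, a stretch-responsive protein of slow fibres, read 1700, 3271 and 2304, and Csrp3, a Z-disc protein, read 1002, 1556 and 605.6. Both were highest on replicate 2. The lowest member was Casq2, the calcium store protein of heart and slow fibres, at 99.7 ± 14.9.

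Fast isoforms were bright as well. The 14 measured members of 16 had a median of 1889, and 12 lay above the 90th percentile. That median was 1245 without replicate 2, which took the list from the 4th to the 8th highest, and 2424 without replicate 3. Atp2a1, the calcium pump of fast fibres, ranked 3rd at 8349 ± 699. The fast light chain Myl1 (7328 ± 531), troponin T Tnnt3 (6044 ± 282) and troponin C Tnnc2 (3849 ± 397) were also among the 40 brightest genes. Myh1, the heavy chain of type IIx fibres, read 4093, 3720 and 3789, with arrays close together. Myh4, the type IIb heavy chain, read 1610, 3671 and 499.4, with the arrays far apart. Myh2, the heavy chain of the type IIa fibres that soleus is known to contain, read 5.8, 23.4 and 12.4. That is the level of genes of other organs, and its only probe set with 1 symbol gives no evidence on whether the transcript is present.

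The isoform pairs below were chosen after their values were seen. Where slow and fast members of a pair were both measured, the slow one was brighter on all 3 arrays in 9 of 11 pairs. That count takes the brightest probe set of each gene. Another probe set of Myh7 (126.3) read below Myh1 and Myh4, one of Tnnt1 (1750) below Tnnt3, and one of Tpm3 (6.97) below Tpm1. Dimmer probe sets of the fast genes Mylpf, Tnnc2 and Myh4 read below the slow gene too. Myh7 entered separately against Myh1, Myh2 and Myh4, and Myh2 read at the level of other organs. Troponin I gave 6768 for slow Tnni1 and 340.5 ± 1.59 for fast Tnni2. The regulatory light chain gave 7697 for Myl2 and 444.4 ± 80.7 for fast Mylpf, and tropomyosin gave 6973 for Tpm3 and 96.7 ± 5.37 for Tpm1. The reading of Tpm1 lay within the range of genes of other organs, of which the highest was 287.2. The essential light chains lay closest, with Myl3 above Myl1 on each array by less than their SDs over arrays. The order was reversed on all 3 arrays for the calcium pumps and for calsequestrin, whose fast form Casq1 read 2702, 3228 and 2379. The same held for other isoforms: the muscle form was brighter than the widely expressed form on all 3 arrays in 7 of 8 pairs. Among these was Cox8b against Cox8a, which read 8.30 ± 5.30, at the level of other organs. Cox6a2, a cytochrome oxidase subunit made in muscle and heart, stood at 6258 ± 464 and its counterpart Cox6a1 at 435.4 ± 21.4. Slc25a4, the muscle exchanger of ATP and ADP across the mitochondrial membrane, read 5625 ± 257 and Slc25a5 174.3 ± 29.8. The exception was Cox7a1, at 1149 ± 216, below Cox7a2 at 2220 ± 60.7.

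These orders are orders of signal, because each probe set has its own efficiency. Probe sets for a single gene show how far apart such signals can lie, and the part of efficiency in this was not tested. Over 2073 genes with 2 or more probe sets, the median ratio of the brightest to the dimmest was 4.51, and it was 6.09 among the 1528 whose brightest exceeded the median. In 580 of those 1528 (38.0%) the ratio was over 10. Of the 40 brightest genes 14 had a further probe set. For Mb, Ckmt2 and Tnnc2 another probe set read 6.17 ± 4.61, 1.13 ± 0.15 and 4.00 ± 2.08, while the brightest read 7555, 5486 and 3849. A further probe set of Ckmt2 read 1235 ± 141. The other probe set of Tnnt1 read 1750 ± 192, and that of Myh7 126.3 ± 6.53. A rank is therefore a rank of signal, and a low reading does not show that a transcript is scarce.

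The remaining sarcomere genes ranged widely. The 18 measured members of 29 had a median of 705.6, and 15 lay above the 90th percentile. Acta1, the actin of skeletal thin filaments, read 8177, 11141 and 9999 and ranked 2nd. Like Tnnt1 it was lowest on replicate 1 and highest on replicate 2. Fhl1, a LIM protein of the sarcomere, and Tpm2, the beta tropomyosin of both fibre types, stood at 5058 ± 614 and 5056 ± 317. Ldb3, a Z-disc protein, read 3832 ± 215 and Myom1, which crosslinks thick filaments in the M-band, 1686 ± 95.8. Together the 3 contractile lists held 7.84% ± 0.66 of the summed signal in 61 probe sets, 0.491% of those ranked. The share was 7.26%, 8.55% and 7.71% on the 3 arrays, highest on replicate 2.

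Oxygen storage and energy buffering were near the top too. Mb, myoglobin, read 6829, 7941 and 7893 and ranked 8th. Ckmt2, the mitochondrial creatine kinase of muscle, read 5383, 5520 and 5553. The SD of this probe set was only 1.64% of its mean, while for a dimmer probe set of Ckmt2, at 1235, it was 11.4%. The adenylate kinase Ak1 stood at 2401 ± 185 and Ckm, the cytosolic creatine kinase of muscle, at 1876 ± 66.9. Ckb, the form found in brain, read 218.1 ± 37.2. The 7 measured members of this list had a median of 1876.

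**Figure D2:**
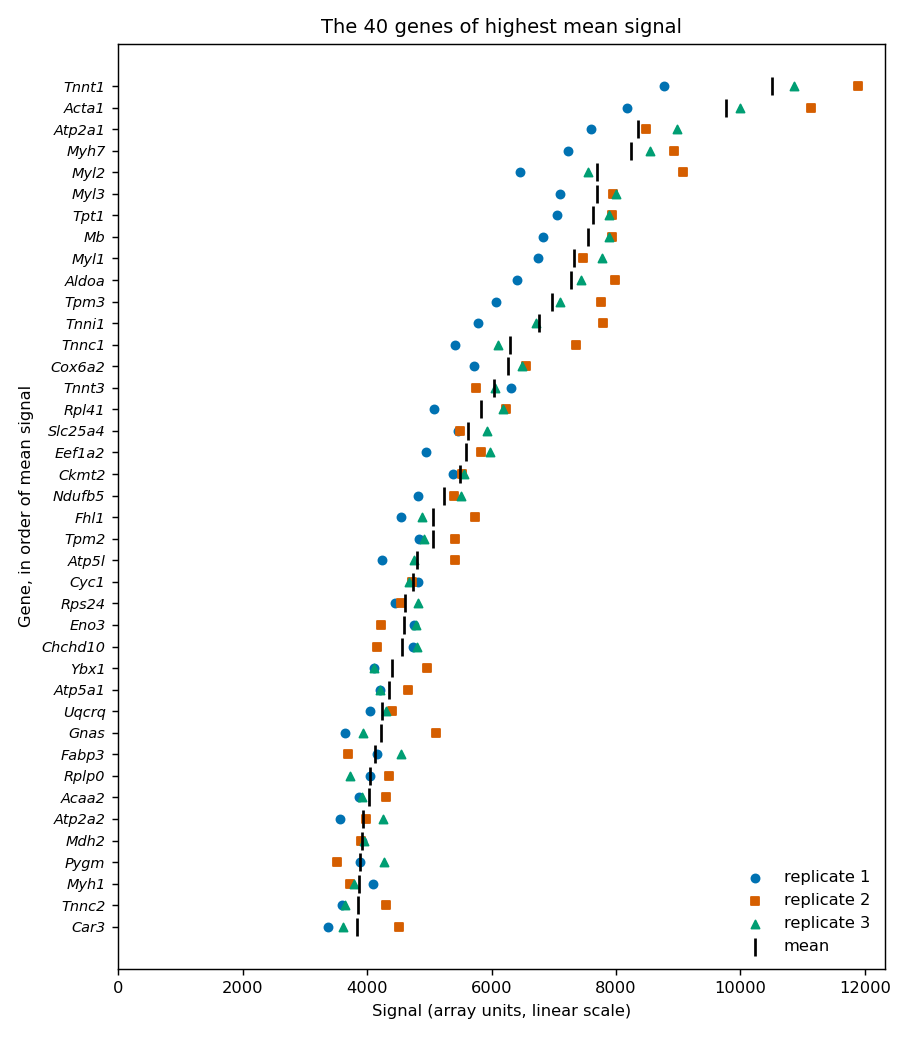
Signal (array units, linear scale) of the 40 genes with the highest mean, 1 row per gene in order of mean; blue circles, orange squares and green triangles are replicates 1, 2 and 3, and black bars are means. The arrays of neighbouring genes overlap, and the circles of replicate 1 are the lowest for 31 of the 40 genes.

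Among the 40 brightest genes 16 belonged to the contractile lists, 7 to the respiratory chain lists, 3 to the ribosome and 3 to glycolysis. Here and below the respiratory chain lists include ATP synthase and the nucleotide exchangers, and Slc25a4 is among the 7. The position of a gene among its neighbours was loosely fixed: in 39 of 39 adjacent pairs the ranges over the arrays overlapped, and only 8 pairs kept their order on all 3 arrays. The composition was firmer, since 88 probe sets were in the top 100 of all 3 arrays and 8 were in the top 10 of all 3. Of the 40 genes 31 were lowest on replicate 1 and 23 were highest on replicate 2, against 30.5% and 36.4% of all genes. After quantile normalization, which gives each array the same distribution, 13 (32.5%) were lowest on replicate 1 and 14 (35%) highest on replicate 2. These shares were close to those of all genes, 30.6% and 35.6%. Quantile normalization sets the brightest ranks to the same values on each array, so a shift shared by the brightest genes is removed by design. That scaling therefore cannot decide whether the pattern was more than such a shift. With each array scaled to a common median, 31 of the 40 were lowest on replicate 1. Under that scaling 19 were highest on replicate 2 and 18 on replicate 3. Genes outside the lists were Chchd10, a mitochondrial intermembrane protein (4568 ± 359), Ybx1, a nucleic acid binding protein (4396 ± 495), and Gnas, a G protein subunit (4227 ± 775).

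Respiratory chain genes formed a broad second tier. Their 93 probe sets, 0.749% of those ranked, held 6.80% ± 0.14 of the summed signal, with 6.94%, 6.67% and 6.81% on the 3 arrays. In contrast to the contractile share, this one was lowest on replicate 2. Of 29 complex I genes, which encode the NADH dehydrogenase that feeds electrons into the chain, 24 lay above the 90th percentile with a median of 1726. Ndufb5 (5239 ± 374), Ndufv1 (3354 ± 160) and Ndufb2 (2917 ± 129) led them. All 13 measured genes of complexes II and III and cytochrome c lay above it, led by Cyc1, cytochrome c1, at 4820, 4716 and 4671, and Uqcrq at 4246 ± 183. Complex IV, the cytochrome oxidase, spread from Cox6a2 at 6258 to 8.30 ± 5.30 for Cox8a, with a median of 1149. Its muscle subunit Cox8b read 2704 ± 204 and Cox6c 3393 ± 281. ATP synthase and the nucleotide exchangers had a median of 1564, with Atp5l at 4801 ± 582 and Atp5a1, the alpha subunit, at 4358 ± 263.

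Fuel enzymes were bright for both fat and sugar. Glycolysis and glycogen genes had the second highest median of all lists, 2136 over 18 genes, and 14 lay above the 90th percentile. Its place changed with the arrays used, since without replicate 3 the fast contractile list (2424) stood above it (2016). Aldoa, the aldolase of muscle, read 6407, 7985 and 7437, Eno3, the muscle enolase, 4587 ± 310, and Pygm, the glycogen phosphorylase of muscle, 3891 ± 373. Lactate dehydrogenase genes Ldha and Ldhb read 3388 ± 357 and 2059 ± 410. Citric acid cycle genes had a median of 1072 over 19 genes, with Mdh2, the mitochondrial malate dehydrogenase, at 3911, 3908 and 3957, a CV of 0.700%. Idh2 read 3345 ± 361 and the pyruvate dehydrogenase subunit Pdha1 2703 ± 303. Fatty acid genes had a median of 989.1 over 19 genes. Fabp3, the fatty acid carrier of heart and slow muscle, read 4165, 3692 and 4544, Acaa2, the last enzyme of beta-oxidation, 4031 ± 239, and Acadm, an acyl-CoA dehydrogenase, 3548 ± 309. Lpl, the lipase that frees fatty acids from lipoproteins, read 2618, 2397 and 3428. Of the 19 fatty acid genes 11 were highest on replicate 3 and 0 lowest there, against 31.7% and 33.9% of all genes, and 10 and 2 after quantile normalization.

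Protein synthesis and upkeep genes came next. Measured ribosomal protein genes, 33 in all, held 2.40% ± 0.07 of the summed signal, led by Rpl41 (5833 ± 656), Rps24 (4604 ± 195) and Rplp0 (4041 ± 319). Many ribosomal genes have processed pseudogenes, and 29 of the 80 listed were read only by probe sets with several symbols and are not counted. Tpt1, a growth-associated protein whose messenger is abundant in many tissues, ranked 7th at 7626 ± 494. Eef1a2, the elongation factor of muscle and nerve, read 5586 ± 552 and its widely expressed counterpart Eef1a1 2582 ± 487. Proteasome and protease genes ranged from 14.5 to 1297, with a list median of 461.5 and a median CV of 7.65%, led by Psma3 at 1297 ± 72.2. Of these 24 genes 23 lay above the median of all probe sets, as did 4808 of all 8251 genes. Of the chaperones, Hspa8 stood at 1585 ± 241, Hspd1, the mitochondrial chaperonin, at 1468 ± 38.8, and the small heat shock protein Hspb2 of muscle at 1436 ± 105. Fth1, the heavy chain of ferritin, led the antioxidant and metal list at 3830 ± 229, followed by Prdx2 and Prdx3, peroxide-reducing enzymes, at 1245 ± 93.7 and 1177 ± 40.8.

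Control genes were far dimmer than structural ones. Myogenic and fibre-type regulators had a median of 134.0 over 20 genes, and 5 lay above the 90th percentile. Mef2d, a transcription factor of muscle genes, read 1161 ± 75.3, and the related Mef2a and Mef2c 546.0 ± 50.3 and 515.7 ± 41.3. Rcan1, a target and inhibitor of calcineurin, stood at 742.9 ± 126 and the nuclear receptor Esrra, a regulator of mitochondrial genes, at 425.6 ± 42.8. Excitation genes were led by Ryr1, the calcium release channel, at 3337, 3675 and 3791, with its voltage sensor Cacna1s at 808.3 ± 91.7. Immediate early genes, which respond to stimuli within minutes, had a median of 217.5 over 23 genes. Fos read 1347, 1292 and 1444, Jund 1138 ± 155 and Dusp1 1056 ± 216. Clock genes had a median of 94.3 and a median CV of 22.3%, with Nr1d1 at 514.4, 340.3 and 520.6 and Dbp at 83.9, 239.9 and 180.0. Both cycle over the day in many tissues, and the labels give no hour of sampling.

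Marker lists of other cells had lower signals, and without detection calls these do not show which transcripts were present. Genes restricted to other organs, taken as a reference for transcripts that muscle does not make, had a median of 17.9 over 48 genes. Of these 38 lay at or below the median of all probe sets and 0 above the 90th percentile, the highest being Cyp2e1 at 287.2 ± 93.7, Lhb at 140.7 ± 7.90, Lor at 121.1 ± 25.3 and Tnp1 at 111.4 ± 5.54. Matrix genes had a median of 342.9 over 25 genes and Dcn, decorin, at 2056 ± 210. Col1a1, a chain of type I collagen, read 973.8, 1551 and 878.4. Endothelial markers had a median of 101.3 over 11 genes, led by Eng at 425.2 ± 90.6 and Cdh5 at 268.6 ± 26.7, and smooth muscle markers one of 211.1 over 9, of which Des is also a gene of muscle fibres. Macrophage markers had a median of 109.2 over 15 genes, with Cd74, the invariant chain of class II antigen, at 330.6 ± 108 and the complement gene C1qc at 277.7 ± 56.3. Adipocyte markers had a median of 91.0 over 10 genes, the brightest being Car3 at 3837 ± 600, which slow muscle fibres also make in large amounts, while Adipoq read 81.4, 231.8 and 222.1. Schwann cell, satellite cell, neuromuscular and heart-restricted lists had medians of 45.4, 50.6, 57.5 and 25. T and B cell markers were the dimmest list, at 7.57 over 9 genes, with Ms4a1 the brightest at 46.8 ± 10.7. In a bulk sample, fewer cells of a type and less RNA per cell cannot be told apart.

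**Figure D3:**
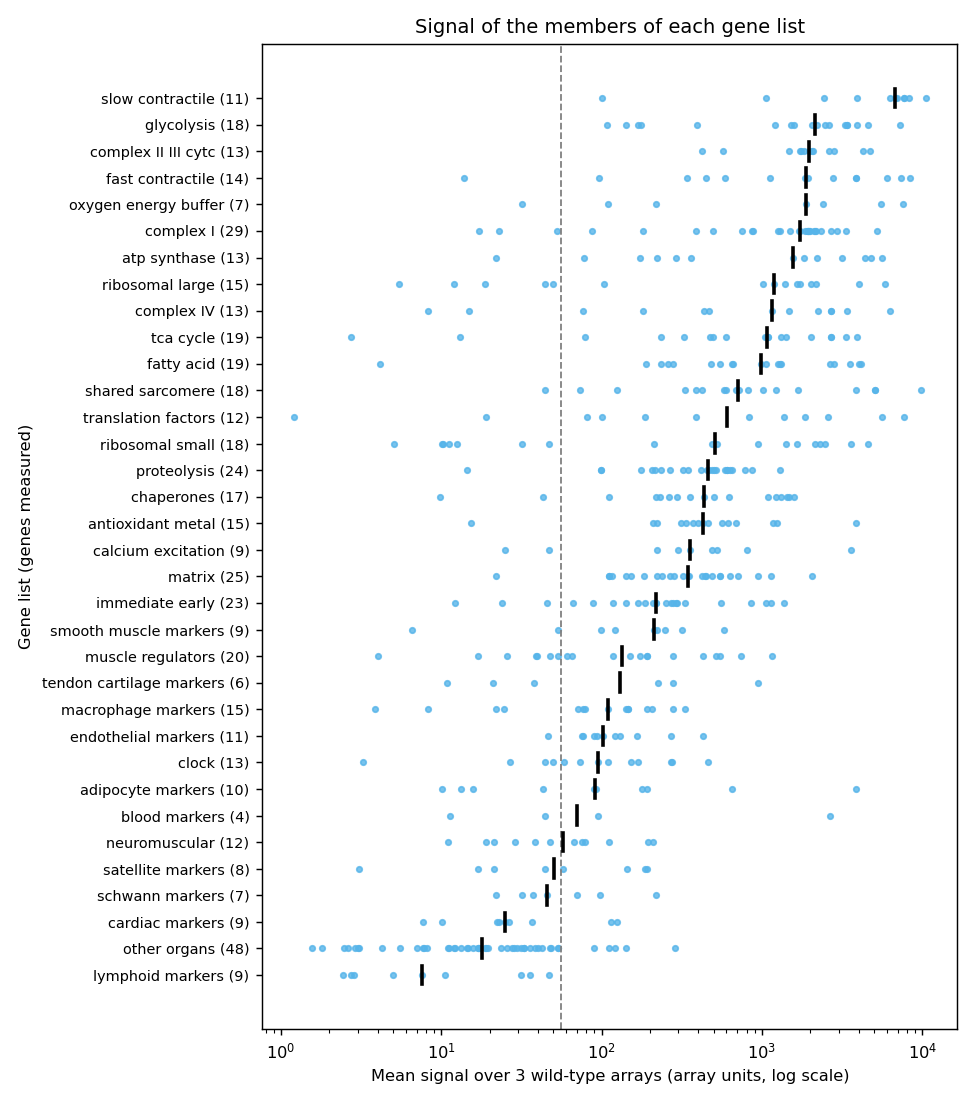
Mean signal over the 3 wild-type arrays (array units, log scale) of each measured gene (points) in 34 gene lists, with the list median as a black bar and the median of all genes, 55.6, as a dashed line. Lists run from the slow contractile genes at a median of 6768 down to the T and B cell markers at 7.57.

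The spread among replicates fell as signal rose. The coefficient of variation (CV, the SD as a percentage of the mean) had a median of 40.8% in the dimmest decile of probe sets and 47.7% in the next. From there it fell with each decile, to 17.8% in the 6th and 9.18% in the brightest. Above the median of the means the CV had a median of 12.6%. It was 11.4%, 9.40% and 10.3% without replicates 1, 2 and 3. These CVs rest on 2 arrays, which tends to lower a median CV, so they cannot be compared directly with that of 3 arrays. Of the 997 abundant genes, those above the 90th percentile, 550 (55.2%) had a CV under 10% and 34 (3.41%) one over 30%. The 40 brightest genes ran from 0.700% for Mdh2 to 18.3% for Gnas, with a median of 8.34%.

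**Figure D4:**
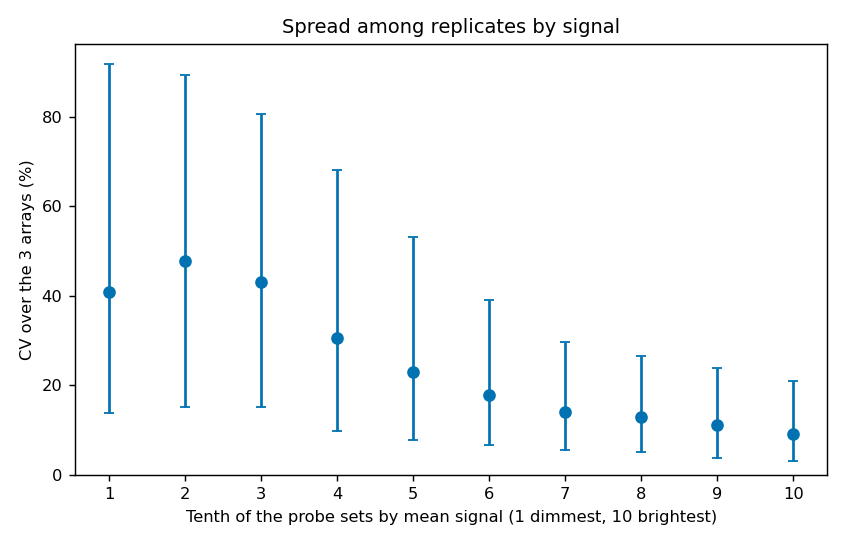
Coefficient of variation over the 3 wild-type arrays (%) by decile of mean signal, from the dimmest (1) to the brightest (10); points are medians over about 1242 probe sets and bars run from the 10th to the 90th percentile. The median is highest in the second decile, at 47.7%, and lowest in the brightest, at 9.18%.

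The abundant genes that varied most fell into a few profiles across the arrays. Red cell genes were high on replicate 1: Hba-a1, an alpha globin, read 4500, 1662 and 1788, and the globin gene Hbb-b2 1001, 252.8 and 260.3. Alas2, the haem synthesis enzyme of red cell precursors, read 166.7, 42.0 and 76.4. Without replicate 1 the means of these 3 genes were 1725, 256.6 and 59.2. Slc4a1, the anion exchanger of red cells, was also highest there (57.1, 29.2 and 46.7), while Epb42, at 6.6, 3.5 and 23.9, read at the level of other organs. The summed signal of these 4 red cell markers other than Hbb-b2 was 4730, 1737 and 1935. Most of this sum was Hba-a1 on each array, so it largely repeats the reading of that gene. The part of blood left in the muscle in other differences between arrays was not tested.

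Of the abundant genes with a high CV, 3 genes of fast glycolytic fibres were highest on replicate 2 and lowest on replicate 3. Actn3, the actinin of fast glycolytic fibres, read 519.4, 922.2 and 309.9, and Pvalb, the calcium buffer parvalbumin of the same fibres, 1676, 2738 and 1137, the same order of arrays as Myh4. The other probe sets of these genes kept that order at lower signals: 140.9, 230.8 and 94.0 for Actn3, 149.2, 200.1 and 86.2 for Pvalb, and 48.5, 52.5 and 38.4 for Myh4. Scd1, a desaturase of lipid synthesis, followed the same order at 538.9, 1093 and 323.3. So did Csrp3 of the slow list, the collagen gene Col1a1 and the ribosomal gene Rpl37a, each with a CV over 30%. The order was therefore not particular to genes of fast fibres. Without replicate 2 the mean of Myh4 was 1055 and that of Scd1 431.1. Of the 14 fast contractile genes 9 were highest on replicate 2, as deposited and after quantile normalization, against 36.4% and 35.6% of all genes. As deposited, 6 of the 14 were lowest on replicate 3, against 33.9% of all genes, and the bright fast genes Atp2a1 and Myl1 were highest there. After quantile normalization 8 of the 14 were lowest on replicate 3 and 1 was highest there, against 32.7% and 32.6% of all genes. Of 18 glycolysis genes 9 were lowest on replicate 2, against 34.8% of all genes, Eno3 and Pygm among them. Another 5 were highest there, Aldoa among them. This was not particular to glycolysis. Lowest on replicate 2 were also 12 of 19 citric acid cycle genes, 15 of 29 complex I genes and 10 of 19 fatty acid genes. Of 13 genes of ATP synthase and the nucleotide exchangers, 2 were lowest there. Of the 11 slow genes 9 were highest on replicate 2 and 10 lowest on replicate 1, where 30.5% of all genes were lowest. After quantile normalization the counts were 7 and 7, against 35.6% and 30.6% of all genes. The share of the slow list in the summed signal was 2.99%, 3.82% and 3.42%. Schwann cell markers were also highest on replicate 2 in 6 of 7 genes (summed signal 484.3, 615.2 and 466.5), and the part of other tissue in these differences was not tested.

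Macrophage genes were high on replicate 3. Of 15 markers 13 were highest there under each of the 3 scalings, against 31.7% of all genes as deposited, and their summed signal was 1545, 1475 and 2473. Their part in other differences between arrays was not tested. H2-Aa, a class II antigen chain, read 63.5, 61.1 and 202.9, Lyz2, a lysozyme, 148.1, 129.8 and 296.5, and C1qa 103.6, 108.3 and 225.3. Cd68 and Csf1r differed less, at 79.7, 72.2 and 82.5 and at 70.6, 68.9 and 89.9. Adgre1, Mrc1 and Tyrobp, also among the 13, read near the level of other organs, at 8.30 ± 1.57, 24.5 ± 11.2 and 21.9 ± 12.1. Apoe, the lipoprotein of macrophages and other cells, read 218.4, 251.4 and 639.4, and its mean was 234.9 without replicate 3. Mt2, a metallothionein, read 386.3, 273.7 and 624.0, and Fbxo6 205.1, 229.6 and 478.6.

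Pdk4, the kinase that shuts off pyruvate oxidation and rises with fasting, read 1214, 3424 and 2325. Twf2, Gpam and Ablim1 were likewise lowest on replicate 1 and highest on replicate 2: 823.7, 1937 and 1472 for the actin-binding Twf2, 495.2, 1048 and 828.8 for Gpam, an enzyme of triglyceride synthesis, and 178.9, 431.6 and 290.7 for Ablim1. Limk1, a kinase that acts on cofilin, was high on replicate 2 at 265.4, 595.2 and 296.2. Feeding state and hour of sampling are not given in the labels. Of the 34 abundant genes with a CV over 30%, replicate 2 was the one apart from the other pair in 12 as the high array and 2 as the low one, replicate 1 in 6 and 5, and replicate 3 in 6 and 3. The same count was not made over all abundant genes, so these numbers do not show that any array stood apart unusually often.

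**Figure D5:**
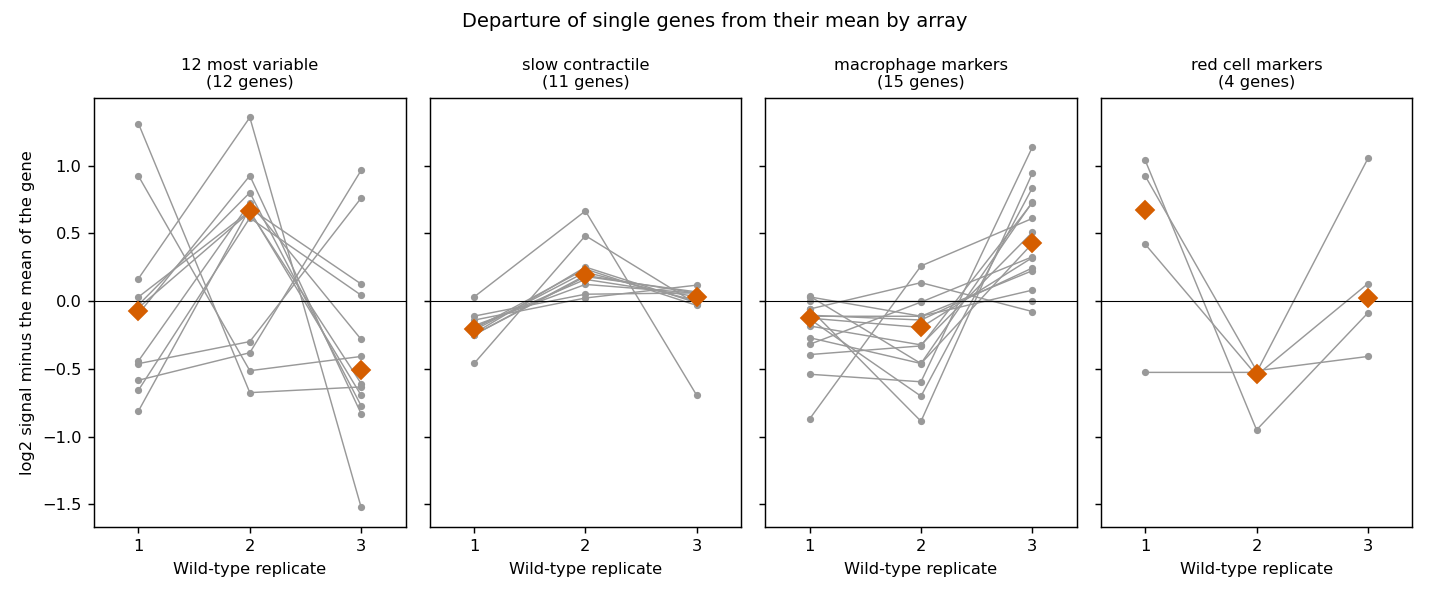
Departure of each gene from its own mean (log2 signal, floored at 8.0) on wild-type replicates 1, 2 and 3 for the 12 most variable abundant genes, 11 slow contractile genes, 15 macrophage markers and 4 red cell markers; grey lines join the values of a gene and orange diamonds are medians. The median of the slow genes is lowest on replicate 1, that of the macrophage markers highest on replicate 3 and that of the red cell markers highest on replicate 1, at -0.20, 0.43 and 0.67, with exceptions among single genes such as Csrp3, C1qb, Fcer1g and Epb42.

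The steadiest abundant genes were of mixed function. Cox8c, a cytochrome oxidase subunit, read 348.9, 350.7 and 350.5, and fast troponin I Tnni2 339.4, 342.3 and 339.7. Cryab, a small heat shock protein of the Z-disc, read 1226, 1218 and 1237, and Bin1, which shapes the transverse tubules, 1925, 1898 and 1893. Slc25a20, the carnitine carrier of mitochondria, stood at 653.2 ± 6.09 and Cav1, the caveolin of endothelial and other cells, at 723.3 ± 8.03. Vamp8, Ubap2, Bag2, Tagln2 and Inpp5a completed the 12, with Mdh2, at CVs of up to 1.15%. With 3 arrays the CV of a single gene is imprecise.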

How the data were processed

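Total RNA of 6 soleus samples was measured on Affymetrix mouse arrays; the 3 wild-type arrays, grouped by the source label, were used. The authors deposited 1 linear signal intensity per probe set and array, without detection calls, scaled so that each array has the same trimmed mean. The sources used here name no software. A fixed trimmed mean leaves the bright end free to differ between arrays. Symbols came from the array annotation, and 10817 of 10833 probe sets with 1 symbol matched RefSeq GRCm38.p6 by gene ID, with 0 symbols changed.

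Probe sets were ranked by mean linear signal; CV used the SD over the 3 arrays. No test was made, since there is 1 group; 3 arrays limit the precision. Named are the 40 genes of highest mean, the 12 of highest and lowest CV above the 90th percentile, and up to 5 leading members of each list. Ankrd2, Casq1, Casq2, Myh2, Mylpf, Tpm1, Cox6a1, Cox7a1, Cox8a, Slc25a5, Ldhb, H2-Aa, Cd68, Csf1r, C1qb, Fcer1g, Mt2, Twf2, Gpam and the further probe sets of Actn3, Pvalb and Myh4 were chosen after their values were seen, as were the isoform pairs and the CV limit of 30%. Adgre1, Mrc1 and Tyrobp were also chosen after their values were seen. Members and lists were chosen with earlier results of these data known. Python 3.11.15, numpy 2.4.6, pandas 2.3.3 and matplotlib 3.10.9 were used, and the steps were tested on simulated data. Alternatives were quantile normalization, median scaling, a floor of 8.0, medians over arrays, other filters, 1 probe set per gene and leaving out each array.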

Additional observations from a re-analysis of the deposited data

How the results depend on the processing

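The number of probe sets holding 50% of the signal stayed between 544 and 567, and the share of the top 100 between 22.6% and 23.3%, under all alternatives run for them. With 1 probe set per gene the contractile, respiratory and ribosomal shares were 7.12%, 6.43% and 2.24%, each more than 1 SD below the values given. Under the other alternatives these shares moved by less than the SD between arrays. The median CV above the median signal was 10.9% above the 70th percentile and 19.9% with no filter. With single arrays left out it was 9.40% to 11.4%, where each CV rests on 2 arrays. The median ratio of brightest to dimmest probe set of a gene was 3.42 with a floor at the 20th percentile, 4.79 from medians over arrays, 6.09 among genes above the median, and 4.62 to 4.75 with single arrays left out. Of the 40 brightest genes 38 to 40 remained under 6 alternatives. Of 194 named genes, 0 moved by more than 1.5-fold after quantile normalization or median scaling, 3 with medians over arrays, and 3, 4 and 2 without replicates 1, 2 and 3. Beyond those given with the results these were Cd79a (31.3 to 16.5) and Col11a1 (37.8 to 21.0) without replicate 2 and Epb42 (11.3 to 5.05) without replicate 3, all near the level of other organs. The scalings of the array order of the lists, and the list medians with arrays left out, were chosen after seeing the data. No paired analysis was possible because only 1 group was described.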
